A study of Mus musculus with 52 samples.

Results

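Triphenyl phosphate (TPhP), an organophosphate used as a flame retardant and plasticiser, was compared with vehicle in mouse bone marrow stromal cultures after 4 days of exposure. The comparison rests on 8 of the 52 arrays of the series, the 4 whose titles end in D4TPhP and the 4 whose titles end in D4Vh, and on every gene with a probe set annotated to that gene alone. Marrow came from female C57BL/6J mice aged 8 weeks, and cells of 2 to 4 animals were combined into a pool before plating. Each pool (numbered 12, 15, 19 and 20 in the titles) gave 1 TPhP and 1 vehicle array, so n = 4 pools per group. All cultures compared here were switched 7 days after plating to osteoinductive medium, which holds ascorbate, β-glycerol phosphate, insulin and 10 nM dexamethasone, and were dosed at that change. Vehicle was DMSO at 0.1%. The dose of TPhP is not given in the labels. Values from TPhP and vehicle arrays at day 1, from MEHP (mono-ethylhexyl phthalate, a phthalate metabolite, dose likewise not given) at day 4 and from rosiglitazone (Rosi, 100 nM) at day 4 are used where named. The platform was Affymetrix Mouse Gene 2.0 ST, and all levels below are log2 array values.

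Stromal cells of the marrow can become osteoblasts, which lay down and mineralise bone matrix, or adipocytes, which store triglyceride. PPARγ, a nuclear receptor that pairs with RXR on DNA, drives the adipocyte path together with C/EBPα, and its target genes coat lipid droplets, take up fatty acids and assemble or release triglyceride. Rosiglitazone is an agonist of PPARγ. The osteoblast path depends on factors such as Sp7 (osterix) and on type I collagen and alkaline phosphatase.

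PPARγ with RXR binds repeats of the hexamer AGGTCA, so the windows around the start sites of the genes reported here were searched for it on both strands. The windows run from 250 bases before to 50 bases after the start (RefSeq, GRCm38.p6), and the hexamer or its reverse complement TGACCT occurs in 16.3% of all 32851 windows. Among 17 key genes of fat storage, adipocyte regulation and sterol export that rose with TPhP, 11 had a window, and 5 of their 16 windows, in Pparg, Cd36 and Aqp7, held the hexamer. The 2 Aqp7 windows overlap and share 1 hexamer, which is thus counted in both. It was in 1 of 12 windows of the 15 largest rises and in 3 of 11 windows of the 15 largest falls, with 10 genes of each set matched. 4 of these windows are shown 5′ to 3′ on the gene's strand because Pparg encodes the receptor itself and Cd36 and Aqp7 are among the uptake genes described below. Capitals mark the hexamer. The Pparg windows are at chr6:115360894-115361193 and chr6:115362099-115362398 (plus strand), where the hexamer lies 28 and 9 bases upstream of the start. The Cd36 window is at chr5:17835847-17836146 (minus strand), with the hexamer 228 bases upstream, and the Aqp7 window is at chr4:41047913-41048212 (minus strand), with hexamers 223 and 101 bases upstream.
Pparg, chr6:115360894-115361193: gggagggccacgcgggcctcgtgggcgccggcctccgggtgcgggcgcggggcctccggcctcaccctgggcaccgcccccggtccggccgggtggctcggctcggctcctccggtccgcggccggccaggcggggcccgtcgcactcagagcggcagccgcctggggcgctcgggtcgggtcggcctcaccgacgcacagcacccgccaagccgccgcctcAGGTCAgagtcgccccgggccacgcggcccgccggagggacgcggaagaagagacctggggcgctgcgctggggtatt
Pparg, chr6:115362099-115362398: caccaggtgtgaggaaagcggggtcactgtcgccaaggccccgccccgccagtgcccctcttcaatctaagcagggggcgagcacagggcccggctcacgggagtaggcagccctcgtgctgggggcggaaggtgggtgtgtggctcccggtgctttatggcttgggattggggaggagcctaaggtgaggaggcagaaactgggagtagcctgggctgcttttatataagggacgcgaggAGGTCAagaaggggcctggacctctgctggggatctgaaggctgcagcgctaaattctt
Cd36, chr5:17835847-17836146: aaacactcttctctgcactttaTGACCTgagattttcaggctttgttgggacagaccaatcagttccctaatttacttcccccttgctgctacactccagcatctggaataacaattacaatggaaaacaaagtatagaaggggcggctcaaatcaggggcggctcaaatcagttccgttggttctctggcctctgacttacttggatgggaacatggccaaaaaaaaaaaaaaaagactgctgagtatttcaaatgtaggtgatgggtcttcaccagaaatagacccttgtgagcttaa
Aqp7, chr4:41047913-41048212: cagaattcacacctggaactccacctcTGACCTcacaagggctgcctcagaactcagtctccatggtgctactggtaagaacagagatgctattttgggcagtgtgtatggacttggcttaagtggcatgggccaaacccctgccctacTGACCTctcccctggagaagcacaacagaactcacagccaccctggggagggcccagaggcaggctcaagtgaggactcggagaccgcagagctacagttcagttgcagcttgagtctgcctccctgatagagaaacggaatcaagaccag
The Cd36 and Aqp7 matches are on the strand opposite to the gene. Over all tested genes with a window, the hexamer was in 15.9% of windows of genes higher in TPhP, 13.3% of windows of genes lower in TPhP and 12.8% of all windows of tested genes. The DR1 element, in which the hexamer stands in a pair with 1 base between, was in 13 windows of all, 0.0396%. These matches describe letters in a window and say nothing of binding.

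Of 14911 genes tested with limma, 2818 (18.9%) differed between TPhP and vehicle at day 4, 1634 (11.0%) higher and 1184 (7.94%) lower. The larger changes ran upward: 94 genes rose and 9 fell by more than 4-fold. Array medians over the series ran from 3.97 to 4.15, and the median difference over all genes was -0.03. Stromal identity was checked with 2 genes picked after their values were seen. Cxcl12, the chemokine of marrow stromal cells, read 11.96 to 12.18 in TPhP arrays and 11.59 to 12.22 in vehicle arrays. Csf1r, the receptor that defines macrophages, read 9.82 to 10.85 in TPhP arrays and 10.68 to 10.95 in vehicle arrays, so the cultures also held macrophage RNA. In such bulk RNA, fewer cells of a type and less RNA per cell cannot be told apart.

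The arrays of pool 12 stood apart in both groups. Over all genes, the SD of an array's difference from the mean of the other 3 arrays of its group was 0.46, 0.38, 0.34 and 0.28 for the TPhP arrays of pools 12, 15, 19 and 20, and 0.51, 0.27, 0.34 and 0.35 for the vehicle arrays. The pool 12 array was thus the farthest from its group in TPhP and, by more, in vehicle. Pool 12 kept the direction of the rises but often not of the falls: within it, 94.7% of the genes called higher were higher in TPhP, and 59.5% of the genes called lower were lower. In pools 15, 19 and 20 those shares were 96.9% to 99.9% for the higher genes and 96.9% to 99.9% for the lower genes. The genes were called on these same pools, so much of this agreement in sign follows from the calling. Without the TPhP array of pool 12, 11.5% of genes were higher and 10.2% lower, and 2577 of the 2818 calls (91.4%) were shared. With every array of pool 12 left out, 11.3% were higher and 11.5% lower, and 2343 calls (83.1%) were shared. In the fit with the pool as a block, all 2818 calls were shared and 3501 genes were called, 12.5% higher and 11.0% lower.

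**Figure D1:**
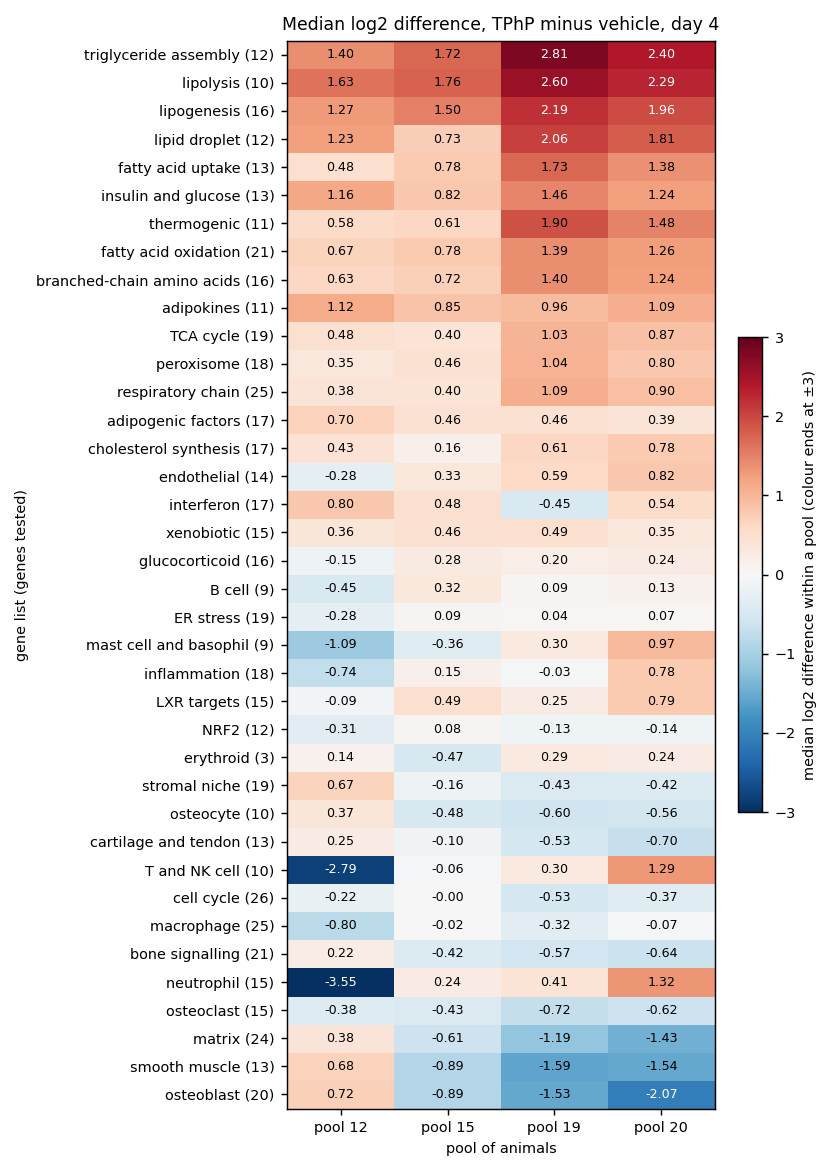
Median within-pool log2 difference, TPhP minus vehicle, of the tested members of each of 38 gene lists (rows) in pools 12, 15, 19 and 20 (columns). The fat storage and mitochondrial lists are positive in all 4 pools (triglyceride assembly 1.40 to 2.81), while the osteoblast list is 0.72 in pool 12 and -0.89, -1.53 and -2.07 in pools 15, 19 and 20.

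Genes that coat and enlarge lipid droplets rose together. Of 12 tested lipid droplet genes 9 rose, where 11.0% of all genes rose, with a median difference of 1.44 on the log2 scale. Values of 4 arrays are given from here on in the order of pools 12, 15, 19 and 20. Cidec, which fuses droplets, read 10.54, 11.14, 11.88 and 11.73 in TPhP arrays, against 4.52, 6.61, 7.49 and 8.46 in vehicle arrays, a rise of 4.55 ± 0.80 (SE, limma adjusted p = 3.57e-05) or 23.5-fold. Plin1, the perilipin that guards the droplet surface of adipocytes, read 10.13, 10.11, 11.02 and 10.82 in TPhP arrays, against 4.59, 6.28, 7.00 and 7.27 in vehicle arrays. It rose by 4.23 ± 0.42 (limma adjusted p = 4.69e-10), 18.8-fold, and the lowest TPhP array lay above the highest vehicle array for both genes. Lgals12, a galectin of the droplet surface, read 9.24, 9.11, 10.06 and 9.86 in TPhP arrays, against 4.09, 4.97, 5.87 and 6.03 in vehicle arrays, 20.1-fold higher (limma adjusted p = 1.12e-11). Plin4 rose by 3.31, Fitm2, which helps droplets bud, by 2.54, and G0s2, an inhibitor of adipose triglyceride lipase, by 2.88. The vehicle array of pool 12 was the lowest of its group in each of the 6 genes. Plin3, a perilipin of most cell types named here after its values were seen, was the 1 member that fell (-0.48, limma adjusted p = 0.0126), a call lost in several refits, among them those without the pool 19 arrays.

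Carriers of fatty acids and glycerol followed. Of 13 tested fatty acid uptake genes 8 rose and none passed the test downward in this fit, with a median difference of 1.14. Fabp4, the fatty acid carrier of adipocytes, read 12.13, 12.21, 12.36 and 12.31 in TPhP arrays, against 9.52, 9.97, 10.19 and 10.63 in vehicle arrays, and rose by 2.18 ± 0.20 (limma adjusted p = 6.07e-11). The TPhP arrays lay between 12.13 and 12.36, closer together than the vehicle arrays. Cd36, a fatty acid translocase, read 11.34, 11.09, 11.53 and 11.46 in TPhP arrays, against 9.88, 9.49, 9.66 and 9.82 in vehicle arrays, a rise of 1.64 ± 0.16 (limma adjusted p = 2.71e-10). Aqp7, the channel through which glycerol passes the adipocyte membrane, read 10.41, 9.82, 10.89 and 10.65 in TPhP arrays, against 6.46, 7.35, 8.06 and 8.14 in vehicle arrays, and rose by 2.94 ± 0.24. Lpl, which frees fatty acids from lipoproteins, rose by 0.99 ± 0.10. Angptl4, an inhibitor of Lpl and an early target of PPARs, read 10.24, 10.43, 10.02 and 10.03 in TPhP arrays, against 9.45, 8.92, 8.00 and 7.92 in vehicle arrays, a rise of 1.60 ± 0.18 (limma adjusted p = 5.34e-09). Its vehicle level was highest in pool 12, unlike that of the droplet genes, and no array of either group overlapped the other group.

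Enzymes on both sides of the triglyceride store rose. Of 12 tested triglyceride assembly genes 10 rose (median difference 2.13), and of 10 tested lipolysis genes 9 rose (median difference 2.05). On the assembly side, Dgat2 rose by 3.81 and Dgat1 by 2.49, the enzymes of the last acylation, Gpat3 rose by 3.19 and Agpat2, which makes phosphatidic acid, by 2.86. On the release side, Pnpla2, adipose triglyceride lipase, rose by 2.20, its activator Abhd5 by 1.60 and Lipe, hormone-sensitive lipase, by 2.36. Hcar1, the lactate receptor that restrains lipolysis, rose by 3.55, and Pde3b, the phosphodiesterase through which insulin restrains it, by 3.31. In pool 12 the assembly genes had a median within-pool difference of 1.40 and in pool 19 of 2.81, and the lipolysis genes had 1.63 and 2.60 in those pools.

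Synthesis of fatty acids showed the same direction, with 13 of 16 tested lipogenesis genes risen and a median difference of 1.75. Fasn, fatty acid synthase, read 11.25, 11.41, 12.40 and 12.37 in TPhP arrays, against 8.64, 8.73, 9.04 and 9.55 in vehicle arrays, a rise of 2.87 ± 0.27 (limma adjusted p = 1.26e-10). The TPhP arrays of pools 19 and 20 were the higher pair, and the groups did not overlap. Acaca, acetyl-CoA carboxylase, rose by 2.51, Acss2, which makes cytosolic acetyl-CoA from acetate, by 2.94, Mlxipl (ChREBP), the glucose-responsive factor of lipogenic genes, by 2.83 and Scd1, the stearoyl-CoA desaturase, by 1.98. Thrsp, a lipogenic nuclear protein, rose by 4.19, with its vehicle array of pool 12 at 3.48 and the other vehicle arrays at 6.54 to 7.85.

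**Figure D2:**
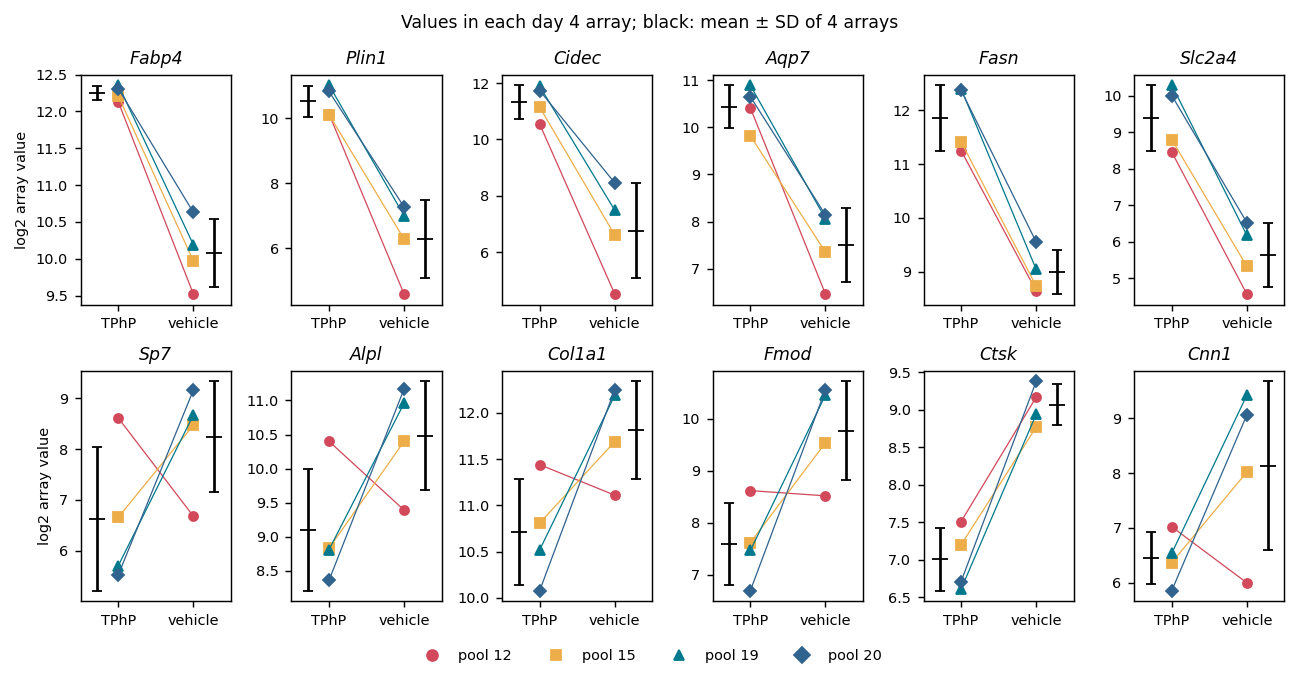
Log2 array values of 12 genes in TPhP (left) and vehicle (right) at day 4, with a line joining the arrays of each pool and black marks for the mean ± SD of 4 arrays. In the upper row (Fabp4, Plin1, Cidec, Aqp7, Fasn and Slc2a4) all TPhP arrays lie above all vehicle arrays. In the lower row (Sp7, Alpl, Col1a1, Fmod, Ctsk and Cnn1) the line of pool 12 slopes against the others for all but Ctsk.

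Among transcription factors of the adipocyte path, 11 of 17 tested rose (median difference 0.55). Pparg read 10.15, 9.74, 10.44 and 10.31 in TPhP arrays, against 8.56, 8.78, 9.17 and 9.20 in vehicle arrays, a rise of 1.23 ± 0.14 (limma adjusted p = 5.7e-09). Cebpa rose by 1.15 ± 0.15 (limma adjusted p = 1.47e-07), Srebf1, the factor of lipogenic genes, by 1.83 and Rxrg, an RXR subtype, by 1.14. The groups did not overlap for Pparg. Zbtb16, also a glucocorticoid target, rose by 1.13, a call that was lost without pool 19 (adjusted p = 0.098) or pool 20 (adjusted p = 0.0964). Ebf1, a factor of both adipocytes and B cells, was called at 0.55 (limma adjusted p = 0.0489) and was not called without pool 12 (adjusted p = 0.738). The count of risen factors was 7 without pool 19. Higher calls over all genes went from 1634 to 818 without pool 19 and to 983 without pool 20, which applies to the counts of rises below.

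Most genes of the adipokine list rose, with within-pool medians of 1.12, 0.85, 0.96 and 1.09. Of 11 tested adipokines and adiponectin receptors 8 rose (median difference 0.79), and 5 did without pool 19 or without pool 20. Adipoq, adiponectin, read 9.82, 9.80, 9.96 and 10.08 in TPhP arrays, against 7.61, 8.71, 8.71 and 8.76 in vehicle arrays, a rise of 1.47 ± 0.33 (limma adjusted p = 0.000921). The vehicle array of pool 12 was far below the other 3. Retn, resistin, read 8.13, 8.88, 10.93 and 10.58 in TPhP arrays, against 4.95, 6.01, 6.16 and 6.90 in vehicle arrays, a rise of 3.62 ± 0.55 (limma adjusted p = 3.78e-06), and the TPhP arrays formed a lower pair, pools 12 and 15, and a higher pair, pools 19 and 20. Lep, leptin, rose by 2.23 and Adipor2, an adiponectin receptor, by 1.37. Car3, carbonic anhydrase of adipocytes and muscle, read 12.26, 12.39, 12.63 and 12.64 in TPhP arrays, against 6.57, 10.22, 11.15 and 11.52 in vehicle arrays (limma adjusted p = 0.00204), so most of the spread lay in vehicle. Cfd (adipsin) was not analysed here.

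Insulin response and glucose transport genes rose in 12 of 13 tested cases, with a median difference of 1.11. Slc2a4, the insulin-responsive glucose transporter GLUT4, read 8.45, 8.79, 10.29 and 10.00 in TPhP arrays, against 4.56, 5.32, 6.17 and 6.52 in vehicle arrays, a rise of 3.74 ± 0.38. Trarg1, a protein of GLUT4 vesicles, rose by 2.77 (limma adjusted p = 3.97e-13), Cav1, which forms caveolae, by 2.19 and Irs3, an insulin receptor substrate of rodents, by 1.81. All 4 differed without overlap between the groups.

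Most genes of the thermogenic list, which marks brown fat, rose as well, Ucp1 not among them. Of 11 tested 9 rose (median difference 1.08), and without pool 19 the count was 4. Ppargc1a, the coactivator of mitochondrial genes, read 5.57, 5.21, 6.86 and 6.61 in TPhP arrays, against 3.02, 3.35, 3.06 and 3.46 in vehicle arrays, a rise of 2.84 ± 0.30. Cox8b, a cytochrome oxidase subunit of brown fat and muscle, read 5.09, 7.12, 8.66 and 8.63 in TPhP arrays, against 3.49, 3.04, 3.32 and 3.49 in vehicle arrays, and rose by 4.04 ± 0.51 (limma adjusted p = 1.05e-07). All vehicle arrays of both genes lay under 4.05, the median of the whole table, so the size of these rises is uncertain. Ucp1, the uncoupling protein of brown adipocytes, read 3.27 to 3.57 in TPhP arrays and 3.22 to 3.46 in vehicle arrays, all under 4.05 (difference 0.11 ± 0.20, limma adjusted p = 0.779). Ppargc1b was called at 1.01 and not without pool 19 (adjusted p = 0.0806), and Slc25a20, the carnitine carrier of mitochondria, rose by 0.85.

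Mitochondrial and peroxisomal genes moved broadly in the same direction by smaller steps. All 25 tested respiratory chain genes rose, as did 19 of 21 fatty acid oxidation genes, 18 of 19 tricarboxylic acid cycle genes, 15 of 16 genes of branched-chain amino acid breakdown and 13 of 18 peroxisome genes, with median differences of 0.64, 1.02, 0.72, 0.96 and 0.72. Pcx, pyruvate carboxylase, read 9.42, 9.86, 11.07 and 10.88 in TPhP arrays, against 6.28, 6.60, 7.26 and 7.59 in vehicle arrays, a rise of 3.38 ± 0.34. Idh3a rose by 1.65 and Cs, citrate synthase, by 1.14. Of the oxidation enzymes, Eci1 rose by 1.62, Acadm by 1.43, Acadl by 1.35 and Acaa2 by 1.26. Pdk4, the kinase that shuts off pyruvate dehydrogenase and a target of both PPARs and glucocorticoids, did not pass the test (9.57 to 9.86 in TPhP arrays, 8.71 to 9.73 in vehicle arrays, difference 0.31, limma adjusted p = 0.25). Bckdhb, a subunit of the branched-chain ketoacid dehydrogenase, rose by 2.07 and Pex16, which builds peroxisomal membranes, by 1.81. Cyc1, cytochrome c1, rose by 1.21 and Ndufs1, of complex I, by 0.94. Within pools the respiratory chain list had medians of 0.38, 0.40, 1.09 and 0.90, so pools 19 and 20 showed larger differences than pools 12 and 15.

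The 15 largest rises were Cidec, Lgals12 and Plin1 followed by genes of several functions. For all 15 the TPhP arrays lay above the vehicle arrays in 4 of 4 pools and without overlap, where 9.33% of all tested genes were so separated upward. The 15 were picked by size among called genes with the same sign in at least 3 of 4 pools. Their agreement between pools thus follows largely from that choice. Aldh1a7, an aldehyde dehydrogenase, was 18.3-fold higher, Sptlc3, a subunit of serine palmitoyltransferase, 17.2-fold, Klb (β-Klotho), a co-receptor of endocrine FGFs, 16.7-fold and Tshr, the thyrotropin receptor, 14.3-fold. Sptlc3 read 5.71, 7.68, 8.89 and 8.37 in TPhP arrays, against 2.76, 3.51, 3.58 and 4.39 in vehicle arrays, with 3 vehicle arrays under 4.05. Ppp1r1a, an inhibitor of a protein phosphatase, rose by 4.07, B3galt2, a galactosyltransferase, by 3.82, Map7d2, a microtubule-associated protein, by 3.77 and Tmem182 by 3.75.

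Sterol genes moved less uniformly. Of 15 tested LXR targets 7 rose and the median difference was -0.09, with within-pool medians of -0.09, 0.49, 0.25 and 0.79. The median turned to 0.08 without the TPhP array of pool 12, 0.24 without its vehicle array and 0.72 without pool 12. Of 17 tested cholesterol synthesis genes 9 rose (median difference 0.42, count 4 without pool 19). Abca1, which exports cholesterol, rose by 0.61 (limma adjusted p = 0.00461, but 0.136 without pool 19 and 0.107 without pool 20). Abcg1, another exporter, read 10.12, 9.84, 9.65 and 9.63 in TPhP arrays, against 10.21, 9.31, 8.49 and 8.36 in vehicle arrays (difference 0.72, limma adjusted p = 0.0255). The 2 groups overlapped in pool 12, and the Abcg1 call was lost without the TPhP array of pool 12 (adjusted p = 0.0787) and without pool 15 (0.072), pool 19 (0.284) or pool 20 (0.262). Lpcat3, a phospholipid remodelling enzyme, rose by 1.04 and Apoc1, an apolipoprotein, by 2.00. Among synthesis enzymes Lss, lanosterol synthase, rose by 1.46, Nsdhl by 1.00 and Hmgcs1 by 0.81, and Pmvk was called at 1.09 but not without pool 19 (adjusted p = 0.0568).

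Osteoblast genes were lower in TPhP in pools 15, 19 and 20 and higher in pool 12. Of 20 tested osteoblast genes 13 fell and none rose, where 7.94% of all genes fell, with a median difference of -1.09 and within-pool medians of 0.72, -0.89, -1.53 and -2.07. Without pool 12, 16 fell and the median was -1.52. The count also rested on pools 19 and 20: it was 7 without pool 19 and 1 without pool 20. With only the 8 arrays compared in the fit it was 0. Lower calls over all genes also shrank, from 1184 to 264, 243 and 146 in these fits, in that order. The same totals apply to the counts of falls without pool 19 or pool 20 given below. Sp7, the osteoblast transcription factor osterix, read 8.61, 6.66, 5.71 and 5.53 in TPhP arrays, against 6.68, 8.47, 8.67 and 9.16 in vehicle arrays (difference -1.62 ± 0.44, limma adjusted p = 0.00667). Its call was lost without pool 19 (adjusted p = 0.214), without pool 20 (0.313) and without the TPhP array of either (0.0605 and 0.0656). Alpl, the alkaline phosphatase of mineralising cells, read 10.40, 8.83, 8.81 and 8.36 in TPhP arrays, against 9.39, 10.40, 10.96 and 11.17 in vehicle arrays, and fell by 1.38 ± 0.27 (limma adjusted p = 0.000215, and 0.0894 without pool 20). Col1a1, a chain of type I collagen, read 11.44, 10.81, 10.52 and 10.08 in TPhP arrays, against 11.11, 11.69, 12.19 and 12.25 in vehicle arrays, and fell by 1.10 ± 0.18 (limma adjusted p = 1.26e-05). In all 3 genes the TPhP array of pool 12 was the highest of its group and the vehicle array of pool 12 the lowest.

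Other osteoblast members showed the same split. Smpd3, a sphingomyelinase needed for mineralisation, fell by 1.64, Pth1r, the parathyroid hormone receptor, by 1.54 and Col1a2 by 0.88, with adjusted p = 0.0533, 0.0717 and 0.0555 without pool 20. Ibsp, bone sialoprotein, read 11.95, 11.51, 10.00 and 10.10 in TPhP arrays, against 11.83, 12.40, 12.27 and 12.55 in vehicle arrays, and did not pass (difference -1.37 ± 0.62, limma adjusted p = 0.12). Among the refits, it passed with the pool as a block (adjusted p = 0.00153), with array weights (0.00105) and without pool 15 (0.0259). Bglap, osteocalcin, read 4.02 to 4.67 in TPhP arrays and 3.74 to 4.54 in vehicle arrays (limma adjusted p = 0.712). Of 10 tested osteocyte genes 2 fell, where 7.94% of all genes did: Pdpn (-0.99) and Slc20a2, a phosphate transporter (-0.76). Both calls were lost without pool 19 (adjusted p = 0.116 and 0.195) or pool 20 (0.0582 and 0.331). Pdpn was also lost without pool 12 (0.0981) and Slc20a2 without pool 15 (0.0995). Dmp1, a matrix protein of early osteocytes, read 9.73, 9.04, 4.92 and 4.68 in TPhP arrays, against 7.54, 9.76, 6.57 and 7.65 in vehicle arrays (difference -0.79 ± 0.92, limma adjusted p = 0.622), with the TPhP arrays in 2 well separated pairs. Sost read 3.65 to 3.94 in TPhP arrays and 3.87 to 4.41 in vehicle arrays (limma adjusted p = 0.19).

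**Figure D3:**
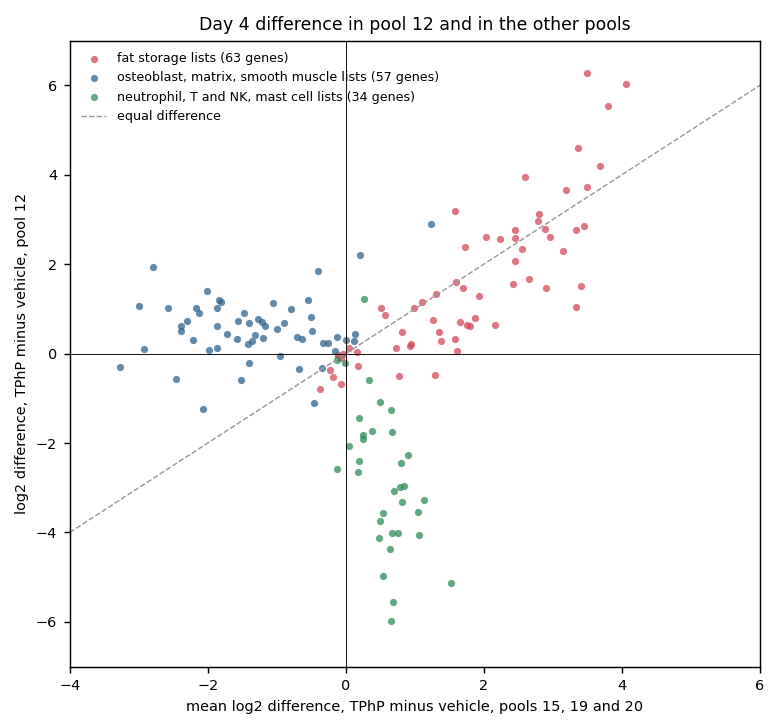
Within-pool log2 difference (TPhP minus vehicle) in pool 12 (vertical axis) against the mean of the differences in pools 15, 19 and 20 (horizontal axis), each point a gene: 63 fat storage genes, 57 osteoblast, matrix and smooth muscle genes, and 34 neutrophil, T and NK, mast cell genes. Fat storage genes lie mostly in the upper right, bone and muscle genes in the upper left, and blood cell genes low in pool 12 (neutrophil list median -3.55) with values nearer to 0 in the others.

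Most genes of the matrix list fell. Of 24 tested matrix genes 16 fell, with a median difference of -0.73 and within-pool medians of 0.38, -0.61, -1.19 and -1.43, and the count was 9 without pool 19, 8 without pool 20 and 18 (median -1.09) without pool 12. Aspn, asporin, a small leucine-rich proteoglycan that binds collagen, read 7.62, 6.50, 7.12 and 6.44 in TPhP arrays, against 7.93, 8.93, 10.42 and 10.53 in vehicle arrays, and fell by 2.54 ± 0.35 (limma adjusted p = 6.11e-07) in 4 of 4 pools. Fmod, fibromodulin, of the same protein family, read 8.62, 7.62, 7.47 and 6.70 in TPhP arrays, against 8.52, 9.54, 10.46 and 10.56 in vehicle arrays, and fell by 2.16 ± 0.30, with pool 12 the exception. Lum, lumican, fell by 1.98, Dcn, decorin, by 1.86 and Col3a1, a chain of type III collagen, by 1.29. Col15a1, a basement membrane collagen named after its values were seen, was the 1 matrix gene that rose (1.65, limma adjusted p = 0.000487).

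Outside the matrix list, C1qtnf3, a secreted C1q/TNF-related protein, had the largest fall. It read 4.86, 5.01, 4.25 and 4.27 in TPhP arrays, against 6.64, 7.48, 8.44 and 9.42 in vehicle arrays, and fell by 3.40 ± 0.56 (limma adjusted p = 1.25e-05), 10.5-fold, without overlap, where 4.94% of all genes were so separated downward. Tnn (tenascin-W) fell by 2.37, Cthrc1, a secreted collagen-repeat protein of bone surfaces, by 2.10, and Fndc1 by 1.83. Panx3, a channel of osteoblasts, read 7.60, 6.58, 5.96 and 5.56 in TPhP arrays, against 6.88, 8.91, 9.37 and 10.04 in vehicle arrays, and fell by 2.38 ± 0.74 (limma adjusted p = 0.0179). Slc13a5, the citrate transporter, fell by 2.40, Ndnf by 2.08, Omd (osteomodulin) by 1.99 and Clec11a (osteolectin), which promotes bone formation, by 1.98. Panx3, Slc13a5, Fmod, Ndnf, Omd and Clec11a were lower in TPhP in 3 of 4 pools, pool 12 being the exception, and the other 9 of the 15 largest falls in 4 of 4. The choice of these falls, by size among called genes, required at least 3 of 4. Without pool 19 or pool 20 the calls were lost for Panx3 (adjusted p = 0.178 and 0.296), Slc13a5 (0.072 and 0.134), Ndnf (0.0639 and 0.171), Omd (0.11 and 0.207) and Gzmd (0.0613 and 0.0596). Gzmd, which fell by 1.96, belongs to a cluster of closely similar granzyme genes that probes may not tell apart.

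Regulators of bone signalling fell in 10 of 21 tested cases (median difference -0.37), where 7.94% of all genes fell. The count was 4 without pool 19 and 2 without pool 20, where 264 and 243 of all genes fell. Dkk3 fell by 1.37, and the secreted Wnt-binding proteins Sfrp2 by 1.09, Frzb by 0.91 and Sfrp1 by 0.90. Calls were lost without pool 20 for Sfrp2 (adjusted p = 0.102) and Frzb (0.137) and without pool 19 for Sfrp1 (0.0885). Tnfrsf11b, osteoprotegerin, the decoy that keeps RANKL from osteoclast precursors, read 7.39, 7.15, 6.17 and 5.82 in TPhP arrays, against 7.61, 8.04, 7.61 and 7.69 in vehicle arrays (difference -1.10 ± 0.32, limma adjusted p = 0.00995). It was lower in TPhP in every pool, and the call was lost without pool 19 (0.0832), pool 20 (0.204) or the TPhP array of either (0.0631 and 0.0894).

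Smooth muscle and myofibroblast genes split like the osteoblast genes. Of 13 tested 10 fell (median difference -0.82), the within-pool medians were 0.68, -0.89, -1.59 and -1.54, and the count was 1 without pool 19, 1 without pool 20 and 11 (median -1.27) without pool 12. Acta2, smooth muscle actin, read 11.27, 10.58, 10.76 and 10.53 in TPhP arrays, against 10.49, 11.50, 12.10 and 12.07 in vehicle arrays, and fell by 0.76 ± 0.18 (limma adjusted p = 0.00147, 0.134 without pool 19 and 0.176 without pool 20). Cnn1, calponin, read 7.02, 6.37, 6.54 and 5.86 in TPhP arrays, against 6.00, 8.02, 9.42 and 9.06 in vehicle arrays, and fell by 1.68 ± 0.36 (limma adjusted p = 0.000606, 0.0646 and 0.109). The vehicle array of pool 12 was lower than its own TPhP array for both genes. Of 13 tested cartilage and tendon genes 4 fell, where 7.94% of all genes did. Scx, the tendon factor, fell by 1.42, Col2a1 by 1.28, Comp by 1.55 and Sox9 by 0.79. The calls of Comp (0.0669 and 0.0668) and Sox9 (0.167 and 0.17) were lost without pool 19 and pool 20.

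General stromal genes differed in sign between pools, with within-pool medians of 0.67, -0.16, -0.43 and -0.42. Of 19 tested stromal niche genes 2 fell (median difference -0.19), where 7.94% of all genes fell. With the pool as a block 4 fell, where 11.0% of all genes did, and without pool 12 5 fell, where 11.5% did. With array weights 10 fell, where 3294 of all 14911 genes did. Itgb1, an integrin subunit, fell by 0.39 (limma adjusted p = 0.000283, 0.0516 without pool 19 and 0.0604 without pool 20), and Pdgfrb was called at -0.44 with adjusted p = 0.0455, a call lost in several refits. Vcam1, the adhesion molecule that holds blood progenitors, read 10.74, 11.00, 11.09 and 10.97 in TPhP arrays, against 9.89, 10.46, 10.98 and 10.87 in vehicle arrays (limma adjusted p = 0.138).

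Osteoclast genes, whose cells come from macrophage precursors in the same cultures, were lower in all 4 pools. Of 15 tested 6 fell (median difference -0.50, within-pool medians -0.38, -0.43, -0.72 and -0.62), where 7.94% of all genes fell. Ctsk, cathepsin K, the collagen-degrading protease of osteoclasts, read 7.51, 7.20, 6.61 and 6.71 in TPhP arrays, against 9.17, 8.77, 8.94 and 9.38 in vehicle arrays, and fell by 2.06 ± 0.28 (limma adjusted p = 5.3e-07) without overlap. Dcstamp and Ocstamp, the membrane proteins of osteoclast fusion, fell by 1.22 and 1.06, and Nfatc1, the osteoclast transcription factor, by 0.40. In contrast to the osteoblast genes, pool 12 did not reverse these.

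The macrophage, neutrophil and T and NK cell lists had their largest within-pool differences in pool 12. Of 25 tested macrophage genes 4 fell (median difference -0.30), where 7.94% of all genes fell. The within-pool medians were -0.80, -0.02, -0.32 and -0.07. The count of falls was 1 without pool 19, 1 without pool 20 and 3 without pool 12, where 1 gene rose. The mean of the gene-centred levels of the macrophage list was -0.56, 0.36, -0.19 and 0.02 in TPhP arrays, against 0.49, 0.48, 0.11 and 0.05 in vehicle arrays. Lyz1, a lysozyme close in sequence to Lyz2, fell by 1.05 (limma adjusted p = 0.000519) and Marco, a scavenger receptor, by 1.53 (0.00308, but 0.0952 without pool 19 and 0.0615 without pool 20). Itgam (CD11b) read 9.05, 10.29, 9.59 and 9.82 in TPhP arrays, against 10.71, 10.31, 10.22 and 10.09 in vehicle arrays (difference -0.64, limma adjusted p = 0.0218). The Itgam call was lost without pool 12 (adjusted p = 0.328), its TPhP array (0.142) or its vehicle array (0.0969), and without pool 19 (0.152) or pool 20 (0.0708). Of 15 neutrophil, 10 T and NK cell, 9 mast cell and basophil and 3 erythroid genes tested, 0 were called by limma in either direction, and 0 had an unadjusted p under 0.05. The member with the smallest adjusted p was Ngp among neutrophil genes (0.305), Cd3d among T and NK cell genes (0.332) and Kit among mast cell genes (0.205). These counts changed in refits. Without pool 12, 2 neutrophil genes rose, where 11.3% of all genes did. With array weights 5 neutrophil, 7 T and NK cell and 4 mast cell and basophil genes rose, where 2704 of all 14911 genes did.

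The TPhP array of pool 12 held the lowest neutrophil signal of the 8 arrays. Ngp, a granule protein of neutrophils, read 4.44, 10.55, 9.06 and 10.35 in TPhP arrays, against 10.43, 10.21, 8.93 and 8.86 in vehicle arrays. Ltf, lactoferrin, read 3.56, 9.19, 7.08 and 8.87 in TPhP arrays, against 9.11, 8.89, 6.98 and 7.25 in vehicle arrays. Retnlg read 2.42 in the TPhP array of pool 12, 5.58 to 7.68 in the other TPhP arrays and 5.66 to 7.39 in vehicle arrays. Pools differed here in sign: the neutrophil list had within-pool medians of -3.55, 0.24, 0.41 and 1.32, and the T and NK cell list -2.79, -0.06, 0.30 and 1.29. Over arrays the neutrophil list score ran from -2.08 to 1.36 in TPhP and from -0.22 to 1.45 in vehicle, and the T and NK cell score from -0.83 to 1.10 in TPhP and from -0.43 to 2.18 in vehicle. Cd4, a helper T cell marker also present on some macrophages, read 5.58, 6.48, 6.39 and 7.34 in TPhP arrays, against 8.16, 6.89, 6.74 and 6.98 in vehicle arrays, so in pool 12 the lowest TPhP array stood beside the highest vehicle array. The list scores of the vehicle array of pool 12 were the highest of the 8 arrays for neutrophil genes (1.45) and for T and NK cell genes (2.18), and its osteoblast, matrix and smooth muscle scores (-0.17, -0.47 and -1.02) were the lowest of the vehicle arrays. The part of these blood cell markers in the osteoblast, matrix, macrophage and smooth muscle results was not tested.

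**Figure D4:**
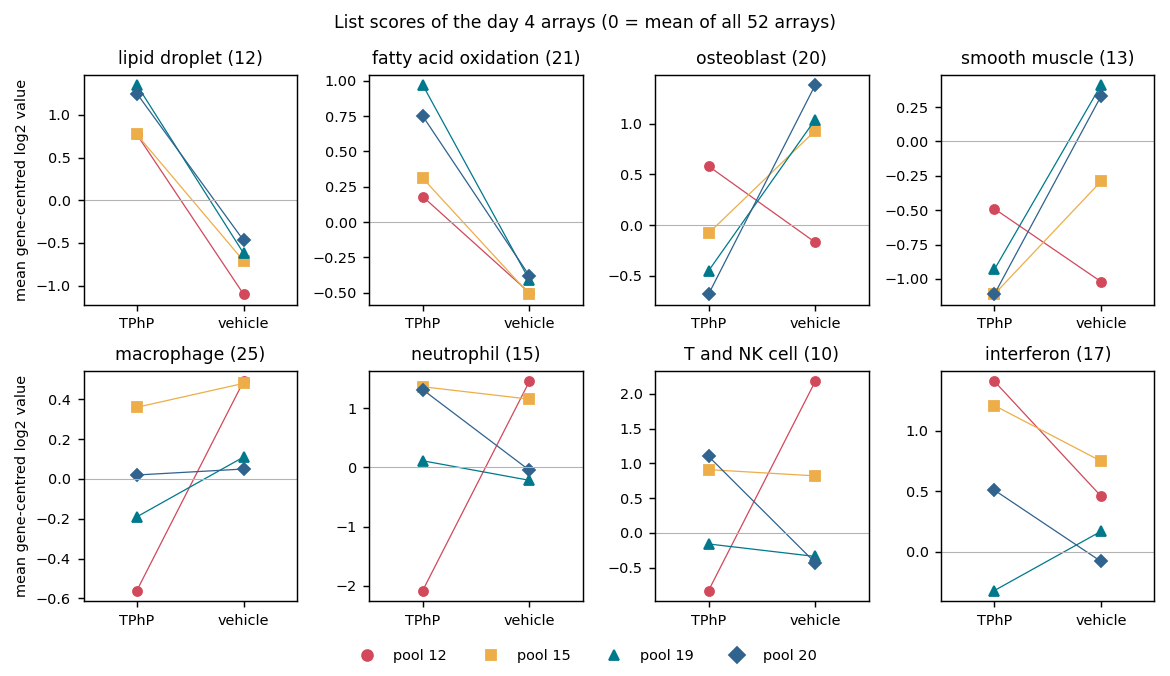
List scores by array, the mean over a list's genes of the log2 level minus the mean of that gene over all 52 arrays, for 8 lists in TPhP (left) and vehicle (right), with pools marked. The lipid droplet score is 0.77 to 1.35 in TPhP and -1.10 to -0.47 in vehicle, and the neutrophil score of the TPhP array of pool 12 is -2.08 against -0.22 to 1.45 in vehicle.

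The NRF2, xenobiotic and ER stress lists held calls in both directions, where 18.9% of all genes were called. Of 12 tested NRF2 targets 4 fell and 1 rose: Hmox1, haem oxygenase, fell by 0.67 (limma adjusted p = 0.000998), Gclm by 0.46 and Gclc, both of glutathione synthesis, by 0.42, and Taldo1, transaldolase, rose by 0.59. Without pool 19 or pool 20 the calls were lost for Gclc (adjusted p = 0.16 and 0.156), Gclm (0.0801 and 0.0867) and Taldo1 (0.0675 and 0.0625). Of 15 tested xenobiotic enzymes 4 rose and 1 fell, with Fmo1, a flavin monooxygenase, up by 1.59, Cyp2e1 by 1.52 and Aox1, aldehyde oxidase, by 1.28 (0.0621 without pool 19), and Ephx1, microsomal epoxide hydrolase, down by 0.51 (0.0732 and 0.0858 without pool 19 and pool 20). Of 19 ER stress and amino acid response genes 3 rose and 2 fell, and 7 rose and 1 fell without pool 12. Psat1, of serine synthesis, rose by 0.98 (limma adjusted p = 5.4e-06), and Asns (0.81), Dnajb9 (0.60) and Calr (-0.30) were called but lost without pool 19 or pool 20. Of 16 glucocorticoid targets 5 rose, where 11.0% of all genes did, and 2 rose without pool 19 or pool 20. Hsd11b1, which regenerates active glucocorticoid, rose by 0.66.

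Of 18 tested inflammation genes 2 rose and 1 fell, where 11.0% of all genes rose and 7.94% fell. Without pool 12, 5 rose, where 11.3% of all genes did. Orm1, an acute-phase protein with near-identical neighbours, read 6.54, 8.67, 10.57 and 10.29 in TPhP arrays, against 5.90, 5.94, 5.98 and 5.85 in vehicle arrays, and rose by 3.10 ± 0.46 (limma adjusted p = 2.03e-06). The vehicle arrays were nearly level while the TPhP arrays spanned a wide range with pool 12 lowest. Hp, haptoglobin, rose by 0.75 (0.0715 without pool 20) and Ptgs2 (COX-2), the inducible prostaglandin synthase, was called at -1.36 (limma adjusted p = 0.0232, 0.178 and 0.235 without pool 19 and pool 20). C4b, a complement factor, was not called (0.95, limma adjusted p = 0.0626). It passed in several refits, among them the pool as a block (adjusted p = 0.00407), without pool 12 (0.00967) and without its TPhP array (0.0357). Of 17 interferon genes, 26 cell cycle genes and 14 endothelial genes, 0 were called by limma in this fit, and 1, 9 and 0 had an unadjusted p under 0.05. The interferon list had within-pool medians of 0.80, 0.48, -0.45 and 0.54, and Gbp3 passed with the pool as a block (adjusted p = 0.0239, against 0.165). Cdk1, the mitotic kinase, read 7.10, 7.08, 6.57 and 6.62 in TPhP arrays, against 7.21, 7.29, 7.11 and 7.23 in vehicle arrays (limma adjusted p = 0.0541, 0.0475 with the block, 0.0277 without pool 12 and 0.036 without pool 15). The number of the 26 cell cycle genes that fell was 4 without the TPhP array of pool 12, 6 without pool 15 and 14 with array weights.

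TPhP arrays of day 1 showed how much of the day 4 difference was already there. At day 1, 27 genes (0.181%) were higher and 5 (0.0335%) lower in TPhP than in vehicle by limma. The change of the TPhP effect between the days, the day 4 difference minus the day 1 difference, was tested as an interaction: 669 genes (4.49%) passed, 545 (3.66%) in the positive and 124 (0.832%) in the negative direction. Some adipocyte genes differed already at day 1. Angptl4 averaged 9.90 ± 0.18 in TPhP and 7.87 ± 0.13 in vehicle at day 1 (SD, n = 4 each, limma adjusted p = 2.32e-10), and its interaction was -0.43 (adjusted p = 0.401). Fabp4 averaged 11.22 ± 0.08 in TPhP and 9.52 ± 0.27 in vehicle at day 1 (limma adjusted p = 6.99e-07, interaction 0.48, adjusted p = 0.389). Others did not. Cox8b averaged 7.38 ± 1.69 in TPhP and 3.33 ± 0.21 in vehicle at day 4, and 3.04 ± 0.10 in TPhP and 2.98 ± 0.32 in vehicle at day 1 (interaction 3.98 ± 0.73, limma adjusted p = 0.000581). Its day 1 and vehicle means lay under the table median of 4.05, where a small difference could go unseen.

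Among named genes, the interaction was 3.85 for Sptlc3, 3.76 for Ppp1r1a, 3.59 for Adig (adipogenin) and 3.48 for Tshr, all with TPhP and vehicle close together at day 1. Adig averaged 6.53 ± 1.03 in TPhP and 2.86 ± 0.35 in vehicle at day 4, and 2.58 ± 0.28 in TPhP and 2.50 ± 0.14 in vehicle at day 1 (limma adjusted p = 9.3e-05). The day 1 and vehicle means of Adig also lay under 4.05, so its closeness at day 1 does not show that an effect was absent. The Cox8b and Sptlc3 interactions were lost without pool 19 (adjusted p = 0.0593 and 0.0661). Fasn had an interaction of 2.44 (limma adjusted p = 0.000103) and Plin1 of 2.47 (0.00965). By list, 14 of 25 respiratory chain genes, 12 of 21 fatty acid oxidation genes, 12 of 19 tricarboxylic acid cycle genes, 10 of 16 lipogenesis genes and 8 of 12 triglyceride assembly genes had a positive interaction, and 5 of 12 lipid droplet genes. Downward, 6 of 24 matrix genes, 3 of 15 osteoclast genes, 2 of 20 osteoblast genes and 0 of 13 smooth muscle genes passed by limma, of which 7 had a negative interaction with an unadjusted p under 0.05.

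The largest negative interactions were those of C1qtnf3 (-2.75 ± 0.79), Ccn3 (-1.96 ± 0.45), Fmod (-1.85 ± 0.43), Ctsk (-1.74 ± 0.40) and Dcn (-1.68 ± 0.39). Ctsk averaged 7.01 ± 0.42 in TPhP and 9.07 ± 0.27 in vehicle at day 4, and 7.25 ± 0.31 in TPhP and 7.57 ± 0.21 in vehicle at day 1 (limma adjusted p = 0.0062). The vehicle mean of Ctsk was higher at day 4 than at day 1 and the TPhP mean was not. Fmod averaged 7.60 ± 0.79 in TPhP and 9.77 ± 0.95 in vehicle at day 4, and 9.67 ± 0.22 in TPhP and 9.98 ± 0.10 in vehicle at day 1. Without pool 19 or pool 20 the interactions of C1qtnf3 (adjusted p = 0.423 and 0.423), Ccn3 (0.0608 and 0.159), Fmod (0.231 and 0.274) and Dcn (0.233 and 0.233) were lost, as was that of Ctsk without pool 20 (0.193). Col1a1 had an interaction of -1.12 (limma adjusted p = 0.00553), and Alpl passed with the pool as a block (0.0323) and not without it (-1.22, 0.0585).

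TPhP, MEHP and rosiglitazone cultures of day 4 were set side by side. They share the vehicle arrays in the comparisons with vehicle, and the doses of TPhP and MEHP are not given, so the values compare cultures at the doses used. Against vehicle, MEHP called 3548 genes (23.8%), 1807 higher (12.1%) and 1741 lower (11.7%), and Rosi called 7316 (49.1%), 3183 higher (21.3%) and 4133 lower (27.7%). Directly against Rosi, 4207 genes (28.2%) differed, 2251 (15.1%) higher and 1956 (13.1%) lower in TPhP. Directly against MEHP, 2 genes differed (0.0134%), 1 in each direction (0.00671%), and 543 had an unadjusted p under 0.05. For 96.5% of genes the 95% confidence interval of the TPhP minus MEHP difference lay within 1 log2 unit of 0, which bounds the differences without showing that the compounds act alike.

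**Figure D5:**
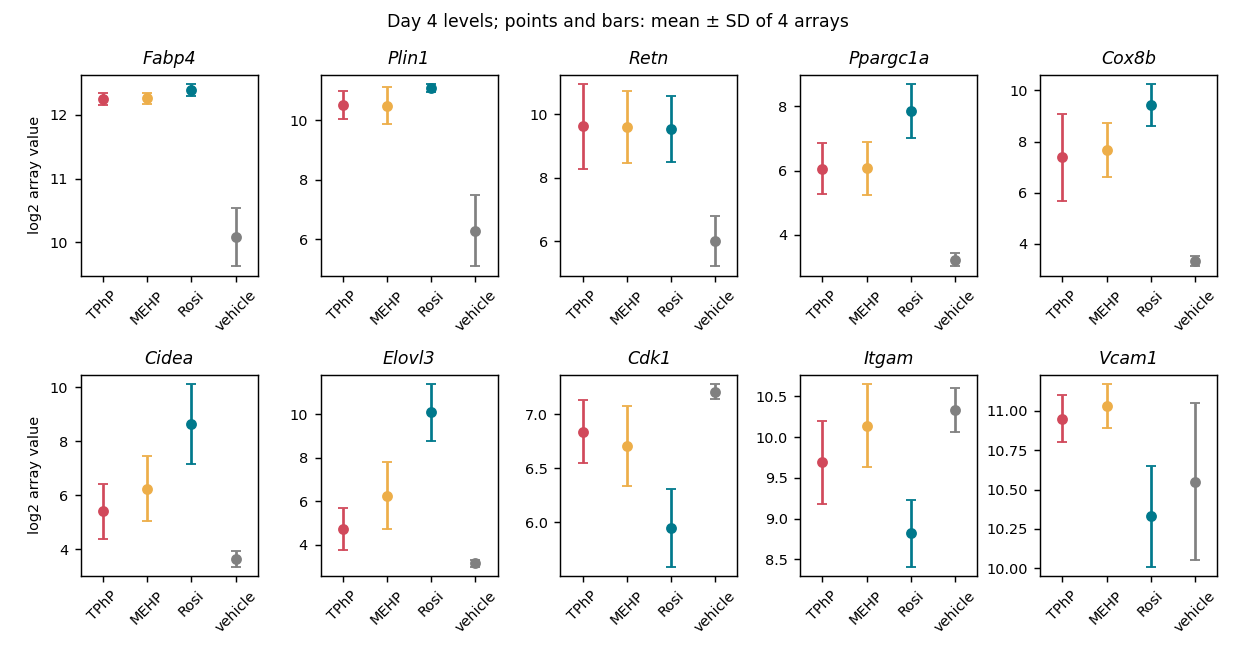
Mean ± SD of log2 array values (4 arrays each) at day 4 in TPhP, MEHP, Rosi and vehicle for 10 genes. Fabp4 (12.25, 12.26 and 12.39) and Retn (9.63, 9.60 and 9.53) have close means in the 3 chemicals, while Ppargc1a, Cox8b, Cidea and Elovl3 are highest in Rosi and Cdk1, Itgam and Vcam1 are higher in TPhP than in Rosi.

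Oxidative, thermogenic and lipolysis genes were lower in TPhP than in Rosi, while adipokine genes did not separate the 2. Fabp4 averaged 12.25 ± 0.10 in TPhP, 12.26 ± 0.09 in MEHP, 12.39 ± 0.10 in Rosi and 10.08 ± 0.46 in vehicle (SD, n = 4 each), and its TPhP minus Rosi difference was -0.14 (95% confidence interval -0.54 to 0.26). Retn averaged 9.63 ± 1.34 in TPhP, 9.60 ± 1.14 in MEHP, 9.53 ± 1.04 in Rosi and 6.00 ± 0.80 in vehicle, a TPhP minus Rosi difference of 0.10 (-1.02 to 1.21). Of 11 tested adipokine genes 0 differed between TPhP and Rosi by limma and 3 had an unadjusted p under 0.05. Of 12 lipid droplet genes 6 were lower in TPhP than in Rosi. All 25 respiratory chain genes, 20 of 21 fatty acid oxidation genes, 10 of 11 thermogenic genes and 9 of 10 lipolysis genes were lower in TPhP than in Rosi, with median differences of -0.74, -0.81, -1.81 and -0.85. Ppargc1a averaged 6.06 ± 0.80 in TPhP, 6.07 ± 0.82 in MEHP, 7.87 ± 0.84 in Rosi and 3.22 ± 0.21 in vehicle (TPhP minus Rosi -1.81 ± 0.30, limma adjusted p = 2.14e-05). Cidea, a droplet protein of brown adipocytes, averaged 5.41 ± 1.02 in TPhP, 6.24 ± 1.21 in MEHP, 8.65 ± 1.48 in Rosi and 3.65 ± 0.30 in vehicle (-3.24 ± 0.48, 3.42e-06). Elovl3, a fatty acid elongase of brown fat, averaged 4.73 ± 0.98 in TPhP, 6.26 ± 1.54 in MEHP, 10.09 ± 1.31 in Rosi and 3.14 ± 0.16 in vehicle (TPhP minus Rosi -5.36 ± 0.53, limma adjusted p = 1.41e-09). Its difference from MEHP was -1.53, with a 95% confidence interval of -2.61 to -0.46, and did not pass after adjustment over all genes. Cyp2e1 (-4.35), Sptlc3 (-3.23) and Tmem45b (-2.87) were also among the genes lower in TPhP than in Rosi.

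Most cell cycle and macrophage genes, and part of the stromal, bone and interferon genes, were higher in TPhP than in Rosi. This held for 24 of 26 cell cycle genes, 19 of 25 macrophage genes, 9 of 19 stromal niche genes, 8 of 20 osteoblast genes and 8 of 17 interferon genes, with median differences of 0.89, 0.79, 0.62, 0.70 and 1.08. Cdk1 averaged 6.84 ± 0.29 in TPhP, 6.71 ± 0.37 in MEHP, 5.95 ± 0.36 in Rosi and 7.21 ± 0.07 in vehicle (TPhP minus Rosi 0.90, limma adjusted p = 5.72e-06). Itgam averaged 9.69 in TPhP, 10.14 in MEHP, 8.82 in Rosi and 10.33 in vehicle (0.87, 0.00123). The largest differences of this sign were Ifi205 (2.16, limma adjusted p = 0.023), Abi3bp, an extracellular matrix protein (2.11, 0.00017), Phex, a peptidase of osteoblasts and osteocytes (1.97, 0.0019), Ifi208 (1.81, 0.037) and Folr2, a folate receptor of macrophages (1.76, 0.0042). Ifi205 and Ifi208 belong to a family of similar interferon-induced genes, and Ifi205, Ifi208 and Folr2 lost their calls without pool 20 (adjusted p = 0.171, 0.17 and 0.0758). Ifi205 and Ifi208 also lost them without pool 12 (0.128 and 0.165) and without its TPhP array (0.0538 and 0.0635).

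The 2 genes that separated TPhP from MEHP were Sfrp2 and Ptges. Sfrp2, a secreted Wnt-binding protein, averaged 7.11 ± 0.43 in TPhP, 5.89 ± 0.46 in MEHP, 5.94 ± 0.19 in Rosi and 8.20 ± 0.81 in vehicle, a TPhP minus MEHP difference of 1.22 (95% confidence interval 0.77 to 1.68, limma adjusted p = 0.0181). Ptges, a prostaglandin E synthase, averaged 5.93 ± 0.31 in TPhP, 6.91 ± 0.37 in MEHP, 6.57 ± 0.21 in Rosi and 5.70 ± 0.24 in vehicle, a difference of -0.98 (-1.31 to -0.65, 0.00558). Both calls were lost without the TPhP array of pool 12 (adjusted p = 0.478 for Sfrp2 and 0.159 for Ptges), without pool 19 or pool 20 and with only the arrays compared. With the probe sets of a gene averaged, the Sfrp2 difference was 0.69 and was not called (adjusted p = 0.368). Sfrp2 was also lost with array weights (0.412) and without pool 12 (0.504), and Ptges without pool 15 (0.0726).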

How the data were processed

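The deposited table holds log2 values of 41345 probe sets, which the authors made in R 3.3.1 using oligo, per the submitters' processing notes. The sources used here do not say how arrays were background-corrected or normalized. Of these probe sets 23521 carried 1 gene (22180 genes), 1814 several and 16010 none. For 1082 genes with several probe sets the one with the highest mean over the 52 arrays was used. Genes were tested if at least 4 arrays exceeded the table median of 4.05, which kept 14911 and set aside 7269. limma fitted the means of 13 groups to 52 arrays (39 residual and 3.45 prior degrees of freedom, two-sided, Benjamini-Hochberg adjusted p threshold 0.05), and SEs are limma's. SEs and p-values rest on a residual variance per gene shared by all 13 groups, those of day 1 included. They thus measure the spread between pools averaged over all groups, not that in the groups compared alone. A gene that varies more in the groups compared than in the others gets too small an SE. Fitting only the arrays compared, which leaves fewer residual degrees of freedom, called 816 genes between TPhP and vehicle at day 4, against 2818. Per the labels' protocols a pool of animals is 1 experiment, so arrays sharing a number share animals. After each group's mean was subtracted, 43 of 52 arrays were closest by correlation to arrays of their own pool, and the day 4 TPhP and vehicle arrays of pools 12, 15, 19 and 20 correlated at -0.29, 0.501, 0.396 and -0.188.

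The 38 lists (651 genes, 571 tested, 279 called) and the key genes were chosen with earlier results of these data known, and lists share members. Genes were named if they were among the 15 largest calls in either direction with the same sign in at least 3 of 4 pools, the 5 largest of each sign in another comparison, the 4 lowest adjusted p-values of a list, or the 29 key genes. Genes picked otherwise are said to be so. Alternatives were the pool as a block (36 residual degrees of freedom), only the arrays compared, cyclic loess, averaging probe sets, testing every gene, a filter at 6.34 (percentile 75 of all values), array weights and each pool or array left out, the removal of both pool 12 arrays being chosen after seeing the data. On simulated data with 200 of 14911 genes changed between TPhP and vehicle at day 4, 48%, 94%, 96% and 100% were recovered at log2 changes of 0.5, 1, 1.5 and 2, and 4.52% of 177 calls were unchanged genes. The simulated noise was normal and independent between arrays, with the same SD in all groups and no pool effect. These rates therefore hold for that setting and not for arrays that depart as those of pool 12 did. Software comprised Python 3.11.15 with numpy 2.4.6, pandas 2.3.3 and matplotlib 3.10.9, and limma 3.58.1 in R 4.3.3.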

Additional observations from a re-analysis of the deposited data

Results flagged for a closer look

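Among 184 groups of 4 arrays checked, 3 held an array far from the other 3 by the gap to the nearest array. Chance gives about 1 such group in 20, a rate that would flag more groups than the 3 found. All 3 were the vehicle array of pool 12 at day 4, with Cthrc1 at 6.71, Adipoq at 7.61 and the cholesterol synthesis list score at -0.53.

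The TPhP effect at day 4 differed from that at day 1 by limma's interaction test in 669 genes. Named among them, Cox8b differed by 3.98, Sptlc3 by 3.85, Ppp1r1a by 3.76, Adig by 3.59 and Tshr by 3.48, the effect being larger at day 4. In the other direction C1qtnf3 differed by -2.75, Ccn3 by -1.96, Fmod by -1.85, Ctsk by -1.74 and Dcn by -1.68.

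Probe sets left out of the gene table, because they carry no gene or several, also held a signal: 216 of 8161 passed limma between TPhP and vehicle at day 4, 151 higher and 65 lower.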

How the results depend on the processing

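Between TPhP and vehicle at day 4, the count of 2818 became 816 (670 higher, 146 lower) with only the 8 arrays compared, 5998 (2704 higher, 3294 lower) with array weights, and 1082 to 3400 with a pool or array left out. Without pool 19 it was 1082 (818 higher, 264 lower) and without pool 20 1226 (983 higher, 243 lower), without both pool 12 arrays, an alternative chosen after seeing the data, 3271 (1615 higher, 1656 lower), and with the pool as a replicate block 3501 (1862 higher, 1639 lower). With only the 8 arrays, 0 osteoblast, 4 matrix, 1 smooth muscle and 1 osteoclast genes fell and 3 thermogenic, 3 adipokine, 7 adipogenic factor, 8 branched-chain amino acid and 4 cholesterol synthesis genes rose. The interaction count of 669 became 1062 with the replicate block, 1800 with the block and without the TPhP array of pool 12, 275 with only the arrays compared, 3972 with array weights and 76 to 1647 with arrays left out, the lowest without pool 19 (76) and pool 20 (85). Against Rosi, 4207 became 704 with only the arrays compared and 2278 to 4521 with arrays left out, and cyclic loess turned the split to 1828 higher and 2354 lower. Against MEHP, 2 became 0 with only the arrays compared, 1 with the mean of probe sets, 1 with array weights, 0 with the block and without the TPhP array of pool 12, and 0 to 3 with arrays left out. Of 4263 values of named genes under alternatives, 3961 kept their side of the threshold, 238 lost a call and 62 gained one. A turn of sign was counted as kept where neither fit called the gene. The other 2 turned round with a call, Cd2 at 0.46 and Mcpt8 at 1.11 with array weights. That setting gave the TPhP and vehicle arrays of pool 12 weights of 0.269 and 0.193, and the TPhP array of pool 20 the highest, 3.54. Where the block changed the call of a gene named above, its value stands beside it. Causes were not tested. With 4 arrays per group, probe sets below 4.05 give sizes that are uncertain, and sequence-similar genes may share signal.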

Other observations

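Endothelial genes, whose cells line marrow vessels, had 0 calls of 14 by limma with a median difference of 0.33, also 0 with the pool as a block and 0 without the TPhP array of pool 12. The number risen was 1 without pool 12, 8 with both the block and that TPhP array left out, and 10 with array weights. Kdr, the VEGF receptor, read 5.65, 6.01, 7.25 and 7.36 in TPhP arrays of pools 12, 15, 19 and 20, against 5.25, 5.66, 6.32 and 6.16 in vehicle arrays, and Plvap, of fenestrated endothelium, read 5.93, 7.09, 7.46 and 7.95 in TPhP arrays, against 6.20, 6.17, 6.85 and 6.75 in vehicle arrays.

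Tfrc, the transferrin receptor of dividing and erythroid cells, read 7.60, 8.57, 8.17 and 8.35 in TPhP arrays, against 9.87, 9.03, 7.84 and 7.68 in vehicle arrays (difference -0.43, limma adjusted p = 0.391), lower in TPhP in pools 12 and 15 and higher in pools 19 and 20. Mcpt8, a basophil protease, read 4.09, 7.08, 4.51 and 6.75 in TPhP arrays, against 7.84, 7.45, 4.77 and 4.63 in vehicle arrays, with pool 20 the only pool higher in TPhP.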
